A study of Mus musculus with 4 samples.

Results

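The genes described here are 45 genes of the lysosome and of the proton pump that acidifies it, taken by gene symbol from a list chosen by function. All 45 were among the 23420 genes listed in the deposited tables, and all 45 passed the filter on low values that left 16077 genes for testing. They comprise 13 subunits of the vacuolar H+-ATPase (V-ATPase), 31 lysosomal membrane and lumenal proteins, and Tfeb, a transcription factor of lysosomal genes. Their symbols all denote single protein-coding genes of the mouse.

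Cochleae were taken from postnatal day 1 mice of strain CD1 that carry an Atoh1-GFP transgene, in which the enhancer of Atoh1 drives GFP in hair cells. All cultures had stood overnight in low oxygen with penicillin before the drug was given. Gentamicin, an aminoglycoside antibiotic, was then given to treated cultures at 0.5 mM for 3 h, and control cultures received none. Cells were sorted by fluorescence into 4 groups with 3 replicates each: control hair cells, gentamicin-treated hair cells (GFP positive), and the GFP-negative non-hair cells of control and of treated cultures. Cells with low GFP were kept out of the sort, and the non-hair cells mix supporting cells of several types, cells of both epithelial ridges and cells of the surrounding tissue. The sources used here do not say how many animals went into a replicate or which replicates shared a sequencing lane. Where replicates are not separate animals, p-values measure only the spread between these samples, which may be technical.

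Lysosomes break down proteins, glycans and lipids with hydrolases that need an acid lumen. The V-ATPase supplies the acid: its V1 sector hydrolyses ATP in the cytosol, and its V0 sector carries protons through the membrane. Many lysosomal genes can be switched on together by TFEB, which binds an E-box with the core CACGTG near their start sites. Aminoglycosides enter hair cells and collect in their lysosomes, which is why these genes are of interest in this tissue.

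That motif was looked for around the start sites of the members. A RefSeq promoter of 250 bases before to 50 bases after the start (build GRCm38.p6) was at hand for 38 of the 45 members. The E-box CACGTG, a palindrome that reads the same on both strands, was found for 14 of these 38 members (36.8%). That stands against 11.0% of the 11652 tested genes with a promoter and 8.09% of all 27025 genes with a promoter. A gene was counted once if any of its promoters held a match. Its extension TCACGTGA, which contains the E-box and is also a palindrome, was found for 6 of 38 (15.8%). The shares were 1.95% of the tested genes and 1.12% of all genes with a promoter. The members with an E-box in this window were Arsa, Atp6v0b, Atp6v0d1, Atp6v1a, Cln3, Ctsa, Ctsd, Ctsf, Ctsl, Gaa, Gla, Glb1, Lamp1 and Lgmn. A match is a description of letters and shows no binding. The stretches below lie upstream of the RefSeq start and show members with repeated copies or the extended form, with each CACGTG in capitals and all other bases in lower case. They are read 5′ to 3′ on the strand of the gene. The stretches of Lamp1 and Atp6v0b lie outside annotated genes of GENCODE M21. That of Atp6v1a lies inside the gene and outside its exons, since GENCODE places the start farther upstream. Those of Ctsa, Ctsd, Cln3 and Gla are 30 bases around 1 copy and lie in exons of GENCODE M21, for Gla in an exon of the neighbouring Hnrnph2.
Lamp1, chr8:13159061-13159160, plus strand: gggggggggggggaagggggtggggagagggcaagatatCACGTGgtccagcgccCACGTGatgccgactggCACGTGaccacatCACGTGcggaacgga
Atp6v1a, chr16:44139340-44139439, minus strand: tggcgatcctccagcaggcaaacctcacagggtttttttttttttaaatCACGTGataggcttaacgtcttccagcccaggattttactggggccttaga
Atp6v0b, chr4:117887334-117887429, minus strand: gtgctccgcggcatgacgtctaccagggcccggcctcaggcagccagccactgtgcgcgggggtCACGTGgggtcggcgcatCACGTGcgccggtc
Ctsa, chr2:164833743-164833772, plus strand: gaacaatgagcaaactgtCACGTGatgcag
Ctsd, chr7:142387908-142387937, minus strand: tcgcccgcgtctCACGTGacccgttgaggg
Cln3, chr7:126583340-126583369, minus strand: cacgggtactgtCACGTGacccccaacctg
Gla, chrX:134601182-134601211, minus strand: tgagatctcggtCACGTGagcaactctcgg

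Lamp1 carried 4 copies of the E-box between positions -61 and -10 from its start. Ctsd, Cln3, Gla and Atp6v0b carried 2 copies each, and Ctsa carried 1 upstream and another that begins at position 6 after its start. The extended form TCACGTGA was present in Ctsa, Ctsd, Cln3, Gla, Atp6v1a and Atp6v0d1. Of the members with a promoter, 6 of the 19 that fell with gentamicin in hair cells held an E-box, and so did 8 of the 19 that were not called.

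Values are normalized read scores, the unit in which the tables were deposited: reads on a gene scaled within each replicate, with 1 added and with no division by gene length. Between 22399878 and 28151578 reads per replicate fell on genes, as recovered from the scores. Hair cell identity was checked with 12 hair cell markers, whose summed score was 12910 to 13380 in control hair cells, 10940 to 12140 in treated hair cells and 264 to 289 in control non-hair cells. The treated sums were all below the control sums, 1 of the 12 markers fell, and none was at 0 in any group. Markers of other cells were not absent from the hair cell sort. Of 12 supporting cell markers, 3 were higher and 3 lower in control hair cells than in control non-hair cells, and 6 were not called. Their level in hair cells is therefore no measure of other cells in the sort. The summed score of 12 supporting cell markers was 3569 to 4292 in control hair cells, 1741 to 3376 in treated hair cells and 2981 to 6046 in control non-hair cells, and 4 of the 12 fell in hair cells with gentamicin. For 12 mesenchyme markers it was 550.3 to 825 in control hair cells, 375 to 458 in treated hair cells and 6308 to 8113 in control non-hair cells, and 5 of the 12 fell in hair cells. The median ratio of these mesenchyme markers to non-hair cells of the same treatment gave a share of non-hair cell RNA of 3.11%, 7.73% and 3.29% in control hair cell replicates 1, 2 and 3, and of 1.33%, 1.62% and 1.71% in the treated ones. By this measure control hair cell replicate 2 stood apart, and each treated replicate was below each control. The estimate rests on the mesenchyme list alone, and other lists gave other ratios. For endothelium they were 5.86% to 10.6% in control and 2.68% to 4.75% in treated hair cells. In the same order they were 19.3% to 32.9% and 16.7% to 23.6% for Schwann cells and neurons. For macrophages they were 3.58% to 6.07% and 4.72% to 8.93%, and for supporting cells 115% to 124.5% and 73.9% to 133%. Melanocyte markers gave 62.0% to 80.4% and 41.3% to 63.8%, and red blood cell markers 1.40% to 9.33% and 4.56% to 433%. In sorted bulk samples, fewer cells of a type and less RNA per cell cannot be told apart.

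After gentamicin, 20 of the 32 members outside the V-ATPase and 2 of its 13 subunits were lower in hair cells. Of the 45 members 22 fell, 0 rose and 23 were not called by limma at a Benjamini-Hochberg adjusted p under 0.05 over all genes tested. The 22 make up 48.9% of the members, where 18.4% of all tested genes fell and 14.8% rose. The falls made up 62.5% of the members outside the V-ATPase and 15.4% of its subunits. The falls were moderate: log2 fold changes of the 45 members ran from -0.78 to 0.20 with a median of -0.27, against a median of -0.09 over all tested genes. The median was -0.31 outside the V-ATPase and -0.15 within it.

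Other ways of counting also gave more members lower than higher. At an unadjusted p under 0.05, 26 members were lower and 0 higher, beside 25.9% and 18.3% of all genes. Under the criteria of the study, which ask for a fold change above 1.2 and an unadjusted p below 0.01, 16 members were lower and 0 higher, beside 14.8% and 12.7% of all genes. All 3 treated replicates lay below all 3 controls for 29 members and above them for 1, Gla; over all tested genes those shares were 33.1% and 21.7%. The count of 22 was reached with all replicates and rested in part on single libraries. It was 11 without control replicate 2, 14 without control replicate 3, 11 without treated replicate 2 and 14 without treated replicate 3. In these 4 fits 10.8% to 15.8% of all tested genes fell, so calls were fewer over all genes too. Without control replicate 2, as without treated replicate 2, those called were 9 members outside the V-ATPase and 2 of its subunits. Scaling by total reads left 11 members. Subtracting the share of non-hair cell RNA estimated from mesenchyme markers left 9, with 12.4% of all genes fallen. Of these 9, 7 were outside the V-ATPase and 2 were its subunits. Scores were not rescaled after the subtraction, and more was taken from controls, which in itself moves fold changes upward. The median over all tested genes was -0.01 after the subtraction, against -0.09 before it. With total scaling 19.8% of all genes rose and 12.2% fell, the reverse of the balance above, and the median of the members was -0.17.

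**Figure D1:**
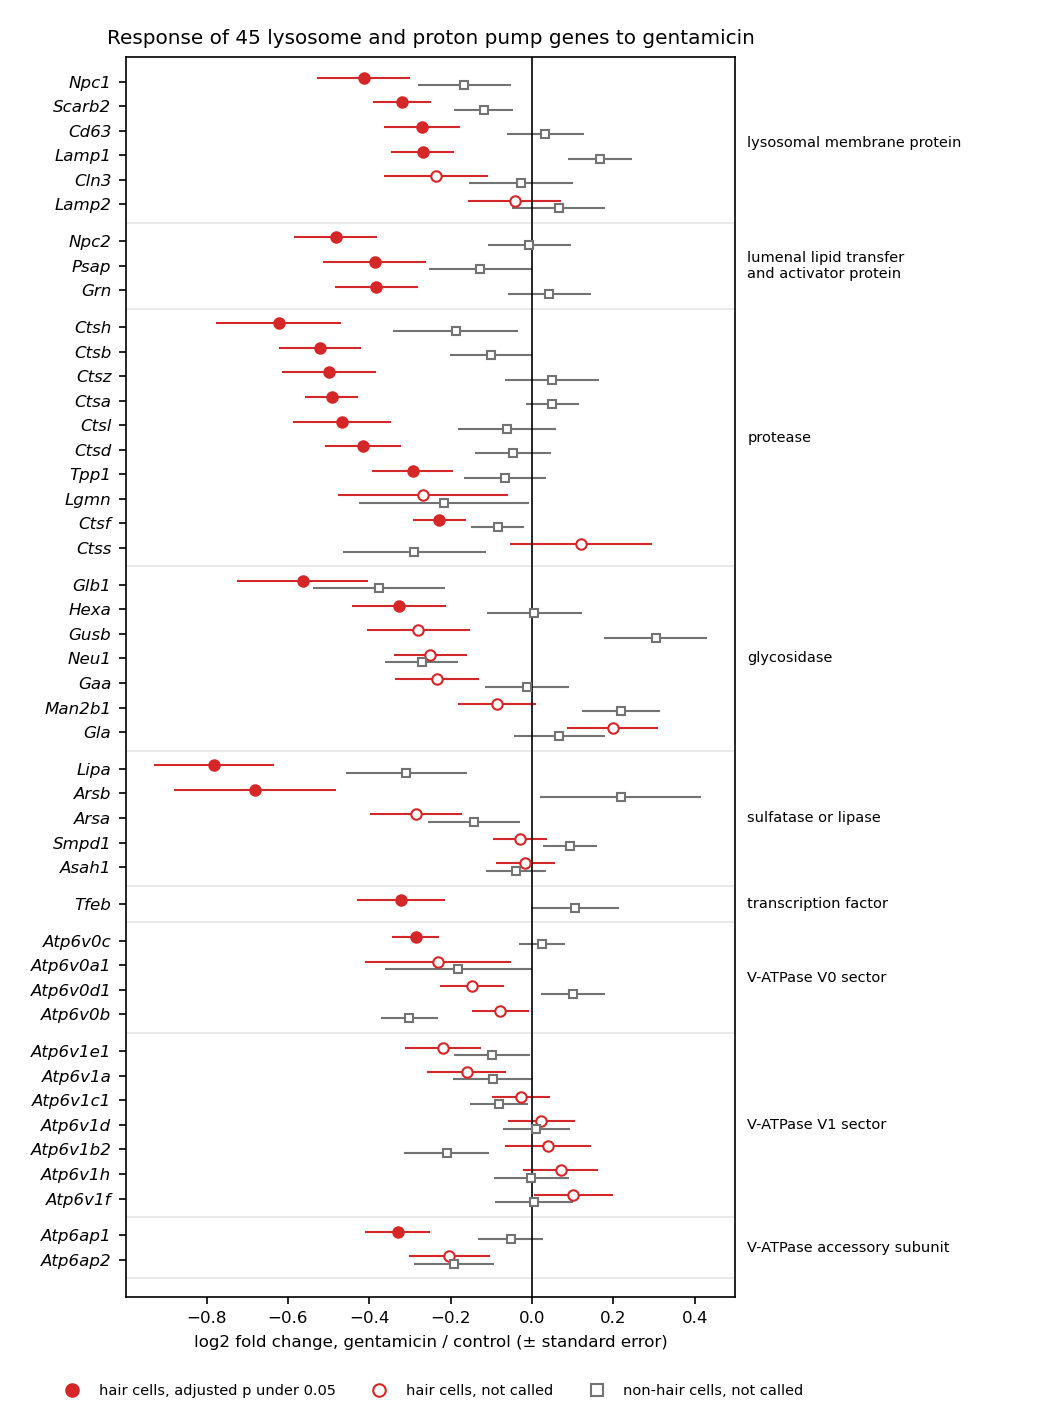
Log2 fold change (gentamicin over control, with limma's standard error) of the 45 members, grouped by role, in hair cells (red circles, filled where the adjusted p was under 0.05) and non-hair cells (grey squares). The 22 filled circles all lie left of 0, 20 of them outside the V-ATPase, and no square is filled.

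In the plot of the members by role, proteases and lumenal lipid-handling proteins lie farthest to the left as groups. Of 10 proteases 8 fell, with a median log2 fold change of -0.44. All 3 lumenal lipid transfer and activator proteins fell, with a median of -0.39. Of 6 lysosomal membrane proteins 4 fell (median -0.27), of 7 glycosidases 2 fell (median -0.25), and of 5 sulfatases and lipases 2 fell (median -0.29). Of the pump, 1 of 4 V0 subunits, 0 of 7 V1 subunits and 1 of 2 accessory subunits fell by limma. In the V1 sector 1 subunit had an unadjusted p under 0.05 and 0 met the criteria of the study.

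The largest fall among the members was that of Lipa, on chromosome 19 (34492318 to 34527474, mm10), which encodes lysosomal acid lipase, the enzyme that frees cholesterol and fatty acids from lipoprotein lipids. Control hair cells had scores of 11.4, 12.8 and 11.6 and treated hair cells 6.94, 6.31 and 7.59. Every treated replicate was below every control. Gentamicin gave a log2 fold change of -0.78, with a standard error of 0.15 (limma adjusted p = 0.00252), which is 1.72-fold lower. In non-hair cells, Lipa had 67.0, 73.2 and 54.3 in controls and 49.99, 63.6 and 44.1 after gentamicin, and these ranges overlapped.

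Arsb, on chromosome 13 (93771630 to 93943016), encodes arylsulfatase B, which removes sulfate from chondroitin and dermatan sulfate. In control hair cells it scored 6.95, 9.94 and 7.69, and after gentamicin 5.40, 4.52 and 5.29. The highest control was replicate 2. On the log2 scale treated cells differed by -0.68 (standard error 0.20, limma adjusted p = 0.0220). Without control replicate 2 it was -0.53 (adjusted p = 0.0936) and without treated replicate 2 it was -0.60 (adjusted p = 0.0798). After the non-hair cell share was subtracted, the difference was -0.52 and not called (limma adjusted p = 0.0561). The level in control non-hair cells, 51.1, 49.9 and 39.8, was several times that of hair cells.

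Among the cathepsins, the proteases of the lysosome, Ctsh on chromosome 9 (90054152 to 90076089) had the largest fitted fall and the weakest base. Its score was 2.39, 3.14 and 2.15 in control hair cells and 1.58, 1.67 and 1.68 in treated ones, which rest on 32, 50 and 25 reads and on 14, 16 and 19 reads. This is a log2 fold change of -0.62 with standard error 0.15 (limma adjusted p = 0.0101), and it was 0.08 after the share of non-hair cell RNA was subtracted. Control non-hair cells scored 32.1, 34.1 and 38.7. Ctss, a cathepsin of antigen-presenting cells, had 1 to 6 reads in each control hair cell replicate and 2 to 15 in each treated one, too few to show a difference at this depth.

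Ctsb, on chromosome 14 (63122462 to 63145923), encodes cathepsin B, a cysteine protease. Its scores of 160, 176 and 168 in control hair cells were followed by 131, 101 and 121 with gentamicin. The fit put the log2 fold change at -0.52 with a standard error of 0.10 (limma adjusted p = 0.00286). It was -0.33 and no longer called after the non-hair cell share was subtracted. Part of its exons (12.8%) overlap Fdft1 on the other strand, and whether reads were counted by strand is not given in the sources used here. Larger overlaps on the other strand were those of Arsb with Gm26527 (32.3%), Ctsl with Gm47123 (26.8%) and Arsa with C230037L18Rik (18.8%). Ctsd overlaps Gm49369 on the same strand (34.4%).

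Ctsz, on chromosome 2 (174427493 to 174439039), encodes cathepsin Z, a carboxypeptidase. It had 16.9, 19.9 and 20.5 in control hair cells and 14.6, 11.2 and 14.9 after treatment, with no overlap. The fall of 0.50 on the log2 scale (standard error 0.12, limma adjusted p = 0.00723) was called with each hair cell replicate left out in turn. It was -0.21 and not called after the subtraction.

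The lowest adjusted p among the members was that of Ctsa, on chromosome 2 (164832873 to 164841032), whose product cathepsin A trims peptides and holds beta-galactosidase and neuraminidase in a stable complex. The 3 control hair cell replicates scored 134, 130.5 and 132, and the 3 treated ones 98.8, 90.8 and 92.0. The treated cells were lower by 0.49 on the log2 scale, 1.41-fold (standard error 0.07, limma adjusted p = 0.000313). This call was kept in every alternative and with every replicate left out. Its exons overlap those of Neurl2 (6.9%) and Pltp (10.5%) on the other strand.

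Glb1 and Neu1 encode the partners of cathepsin A. Glb1, on chromosome 9 (114401076 to 114474898), encodes beta-galactosidase and scored 30.9, 41.0 and 36.6 in control hair cells and 26.8, 22.6 and 23.7 in treated ones. By limma its change was -0.56 on the log2 scale, standard error 0.16, at an adjusted p of 0.0208. Leaving out control replicate 2 gave -0.47 (adjusted p = 0.0867), control replicate 3 -0.55 (adjusted p = 0.0579), treated replicate 2 -0.51 (adjusted p = 0.0737) and treated replicate 3 -0.55 (adjusted p = 0.0536). Neu1, which encodes neuraminidase, was at 51.0, 52.9 and 57.4 in controls and 49.2, 42.0 and 44.4 in treated hair cells, and its log2 fold change of -0.25 just missed the threshold (limma adjusted p = 0.0511).

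Ctsd, on chromosome 7 (142375911 to 142388038), encodes cathepsin D, the main aspartic protease of the lysosome. It scored 261, 282 and 259.6 in control hair cells and 209, 199 and 194 after gentamicin. Gentamicin gave a log2 fold change of -0.42, with a standard error of 0.09 (limma adjusted p = 0.00672), and the call was kept in every alternative. The remaining proteases that fell were Ctsl (-0.47), Tpp1 (-0.29), the tripeptidyl peptidase, and Ctsf (-0.23). Ctsl lost its call without control replicate 2 (-0.43) or treated replicate 2 (-0.36), Ctsf without control replicate 2 (-0.21) or 3 (-0.23) or treated replicate 3 (-0.19), and Tpp1 with any 1 hair cell replicate left out (-0.32 to -0.27). Lgmn, the asparaginyl endopeptidase that activates other cathepsins, was at 127, 127 and 134 in controls and 123, 120.4 and 83.4 in treated hair cells. Treated replicate 3 alone was far below the rest, and Lgmn was not called (limma adjusted p = 0.35).

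Cholesterol leaves the lysosome by way of Npc2, a soluble carrier, and Npc1, the membrane protein to which it hands its load. Npc2, on chromosome 12 (84754562 to 84773152), scored 46.3, 54.2 and 49.7 in control hair cells and 40.1, 31.6 and 35.9 in treated ones. On the log2 scale treated cells differed by -0.48 (standard error 0.10, limma adjusted p = 0.00467), and the value was -0.21 and not called after the non-hair cell share was subtracted. Npc1 scored 82.7, 90.7 and 96.7 in controls and 64.9, 59.7 and 79.0 in treated hair cells, a log2 fold change of -0.41 (standard error 0.12, limma adjusted p = 0.0178). Npc1 lost its call without control replicate 2 or 3 or treated replicate 1 or 2, with values from -0.41 to -0.33 and adjusted p from 0.0543 to 0.0751.

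Psap encodes a protein that is cut into the saposins, which help hydrolases reach sphingolipids. Per kb of merged exons it had the highest level of all members in each group. It scored 877, 941 and 931 in control hair cells and 720.1, 693 and 689 in treated ones. This is a log2 fold change of -0.39 with standard error 0.13 (limma adjusted p = 0.0365), and the call was lost with any 1 of the 6 hair cell replicates left out (-0.42 to -0.37). Grn, which encodes progranulin, fell by 0.38 on the log2 scale (standard error 0.10, limma adjusted p = 0.0149). It was -0.15 and not called after the subtraction, and lost its call without control replicate 2 (-0.35) or treated replicate 2 (-0.31).

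The 4 membrane proteins that fell had log2 fold changes from -0.41 to -0.27. Lamp1, on chromosome 8 (13159161 to 13175338), encodes a heavily glycosylated protein of the limiting membrane. It scored 422, 405 and 428 in control hair cells and 363, 341 and 338 after gentamicin, so the groups did not overlap. The fit put the log2 fold change at -0.27 with a standard error of 0.08 (limma adjusted p = 0.0212). Without control replicate 1 it was -0.26 (adjusted p = 0.0628), without control replicate 3 -0.25 (adjusted p = 0.0655), without treated replicate 2 -0.26 (adjusted p = 0.0663) and without treated replicate 3 -0.25 (adjusted p = 0.0572). Lamp2, its relative, was at 89.8, 86.8 and 112 in controls and 101, 82.1 and 96.7 in treated hair cells, which overlapped, with a log2 fold change of -0.04 that turned positive under some settings.

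Scarb2, which encodes LIMP-2, the membrane receptor that brings glucocerebrosidase to lysosomes, was the only 1 of the 6 membrane proteins that stayed called in every setting. It scored 102, 105 and 96.4 in control hair cells and 82.3, 79.8 and 81.2 in treated ones. By limma its change was -0.32 on the log2 scale, standard error 0.07, at an adjusted p of 0.00656, and the call was kept in every alternative. Cd63, a tetraspanin of late endosomes, was close to the threshold, with a log2 fold change of -0.27 (standard error 0.09, limma adjusted p = 0.0466), and was called only without control replicate 1 or treated replicate 1 among the 6 fits with a hair cell replicate left out (-0.34 to -0.21 in all 6). Cln3, a membrane protein lost in a juvenile storage disease of neurons, was not called (-0.24, limma adjusted p = 0.183).

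Several hydrolases of the list had values near 0 in hair cells. Asah1 (acid ceramidase) had a log2 fold change of -0.02, Smpd1 (acid sphingomyelinase) of -0.03 and Man2b1 (alpha-mannosidase) of -0.09, and all 3 had standard errors of 0.07 to 0.10 and changed sign under other scaling. Gla, which encodes alpha-galactosidase A, was the member with the highest log2 fold change, 0.20 (standard error 0.11, limma adjusted p = 0.199). It scored 20.1, 18.9 and 20.8 in controls and 23.1, 24.4 and 21.2 in treated hair cells. Hexa, a subunit of beta-hexosaminidase, was called by a narrow margin (-0.33, limma adjusted p = 0.0499) although its replicates overlapped, with 69.7, 77.5 and 80.1 in controls and 70.8, 63.8 and 48.6 after treatment. It stayed called without treated replicate 1 (-0.44) and with no other hair cell replicate left out, down to -0.17 without treated replicate 3. Gaa, Gusb and Arsa had log2 fold changes of -0.23, -0.28 and -0.29 and were not called.

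Tfeb, on chromosome 17 (47737030 to 47792419), scored 21.0, 21.5 and 17.6 in control hair cells and 16.3, 16.0 and 15.5 in treated ones. The treated replicates all lay below the controls, but control replicate 3 was close to them. Gentamicin gave a log2 fold change of -0.32, with a standard error of 0.11 (limma adjusted p = 0.0391). The call was kept without control replicate 3 (-0.41, adjusted p = 0.0210) and lost with each other hair cell replicate left out, with values from -0.34 to -0.27 and adjusted p from 0.0675 to 0.141. These are transcript levels, and the activity of TFEB, which is set by its move into the nucleus, was not measured.

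**Figure D2:**
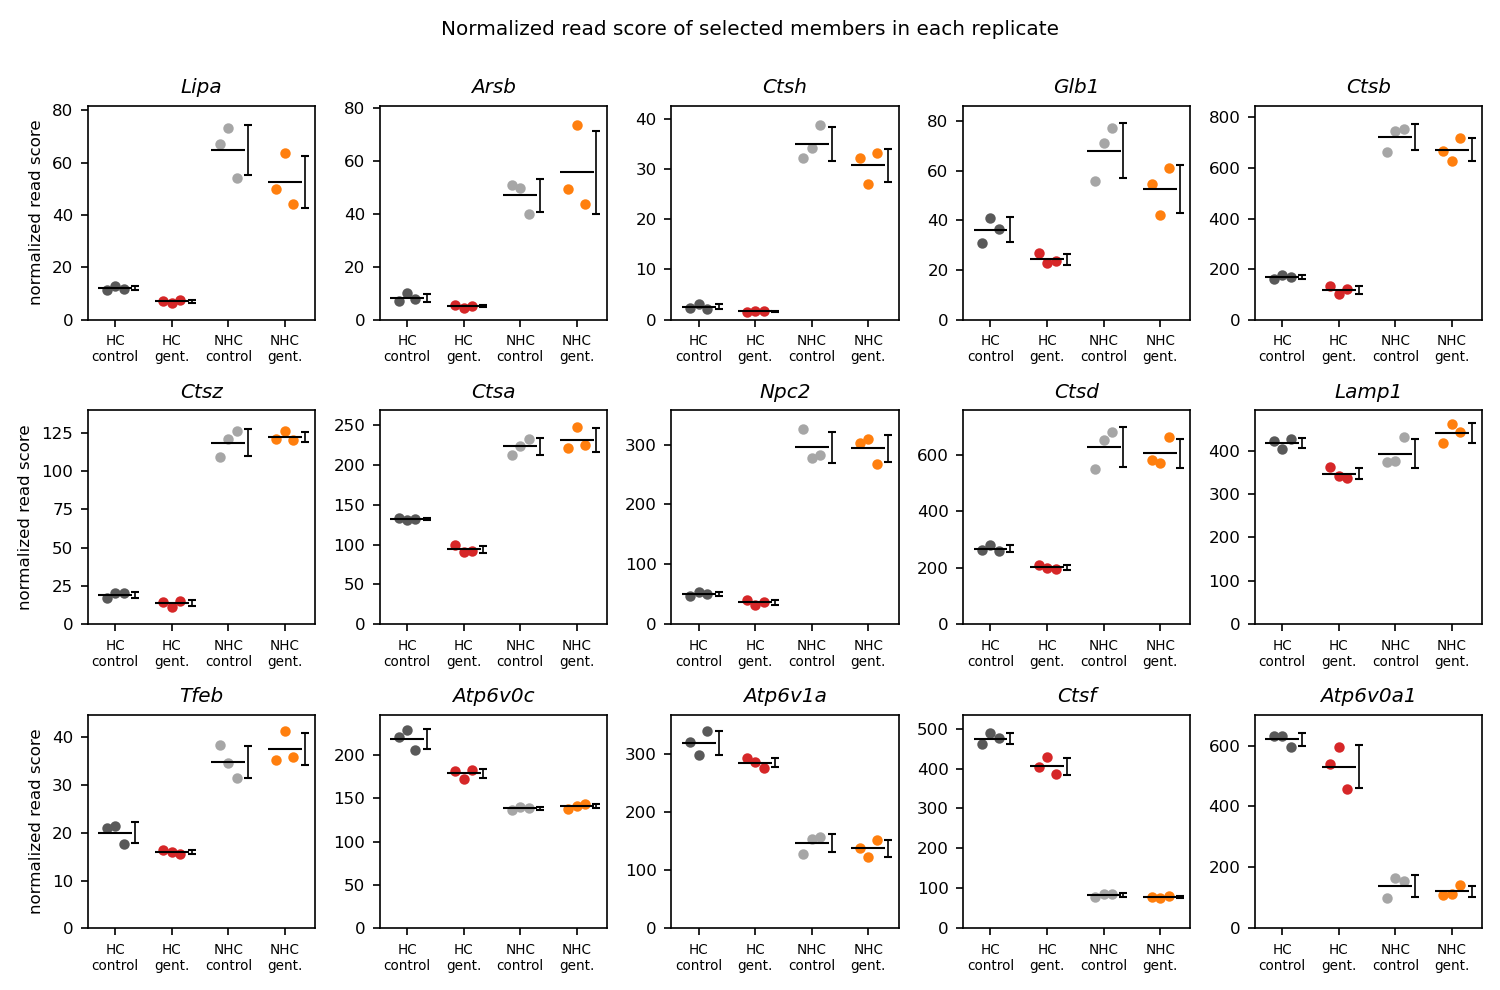
Normalized read score (linear axes that start at 0) of 15 members in each of the 3 replicates of control and gentamicin-treated hair cells (HC) and non-hair cells (NHC); lines mark means and bars the SD. For Ctsa the treated hair cell replicates (90.8 to 98.8) lie well below the controls (130.5 to 134), while for Atp6v0a1 they span 458 to 596 beside controls of 596 to 633.

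In the proton pump 2 of 13 subunits fell (15.4%), beside 18.4% of all tested genes. Atp6v0c, on chromosome 17 (24163866 to 24169702), encodes the proteolipid of the proton-carrying ring. It scored 219.9, 229 and 205 in control hair cells and 181, 173 and 183 after gentamicin. On the log2 scale treated cells differed by -0.29 (standard error 0.06, limma adjusted p = 0.00331), and it was called in every alternative. A processed pseudogene listed in the same tables, Atp6v0c-ps2, matched it at 99.8% over 465 bases, so reads could be split between the pair and both values are uncertain. The pseudogene scored 156.5, 148 and 178 in control hair cells and 167, 178 and 172.5 in treated ones (log2 fold change 0.11, limma adjusted p = 0.471).

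The other subunit that fell was Atp6ap1, an accessory protein that helps assemble the V0 sector. It scored 224, 228 and 231 in control hair cells and 189, 174.5 and 180.3 in treated ones, a log2 fold change of -0.33 (standard error 0.08, limma adjusted p = 0.00932). It kept its call with each replicate left out and lost it under total scaling (-0.23). Its partner Atp6ap2, the prorenin receptor, was not called (-0.20, limma adjusted p = 0.136), although all treated replicates lay below the controls.

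The remaining subunits were not called. Atp6v1a, on chromosome 16 (44085402 to 44139705), encodes the subunit that binds and hydrolyses ATP. It scored 319.9, 299 and 339 in control hair cells and 293, 286 and 276.5 in treated ones. The groups did not overlap, by a margin smaller than the spread among the controls, with a log2 fold change of -0.16 (standard error 0.10, limma adjusted p = 0.228). Atp6v0a1, the V0 subunit with the highest level in hair cells, had 632.5, 632 and 596 in controls and 539, 596 and 458 in treated cells (-0.23, limma adjusted p = 0.351). Atp6v1e1 of the stalk had the lowest adjusted p of the V1 sector (-0.22, limma adjusted p = 0.0934). Atp6v1b2, Atp6v1c1, Atp6v1d, Atp6v1f and Atp6v1h had log2 fold changes from -0.03 to 0.10, and Atp6v0b and Atp6v0d1 of -0.08 and -0.15.

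**Figure D3:**
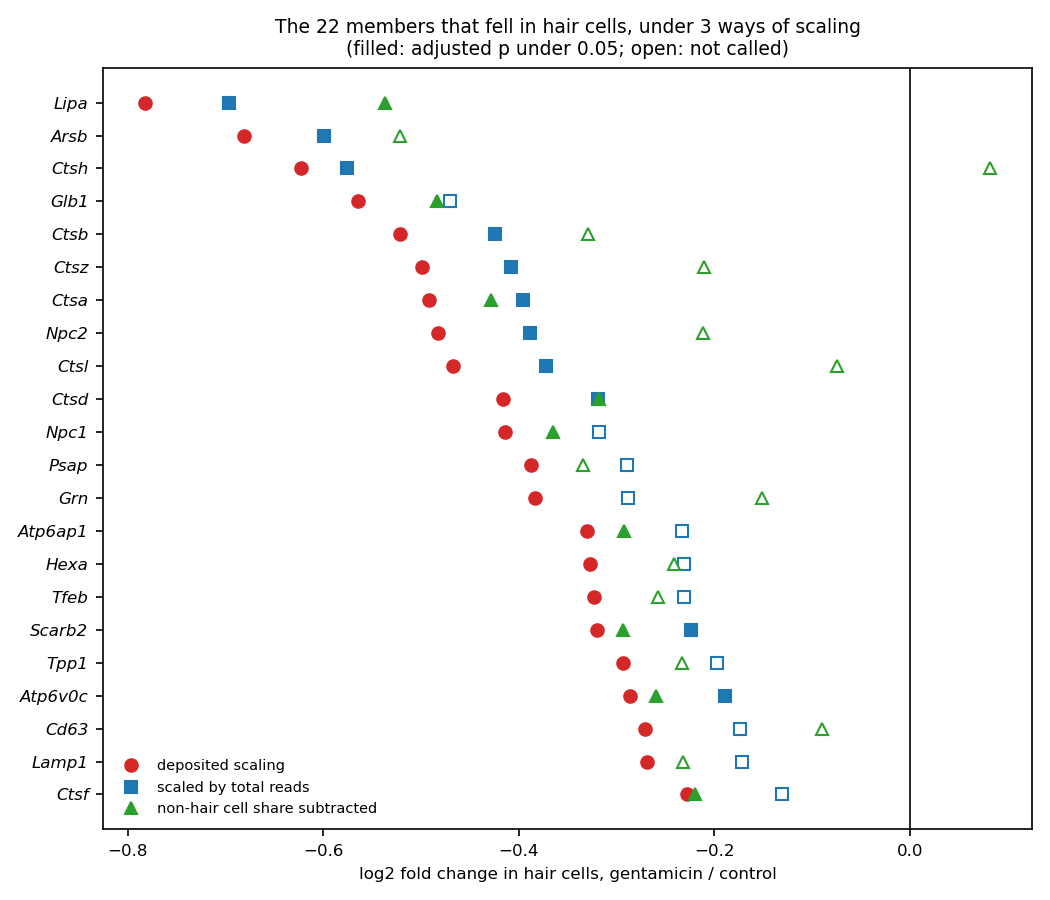
Log2 fold change in hair cells of the 22 members that fell, with the deposited scaling (red circles), with scaling by total reads (blue squares) and after subtracting the estimated share of non-hair cell RNA (green triangles); filled symbols had an adjusted p under 0.05. Lipa, Ctsa, Ctsd, Scarb2 and Atp6v0c are filled in all 3, while Ctsh moves from -0.62 to 0.08 and Ctsl from -0.47 to -0.07 under the subtraction.

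How far a member moved under the subtraction differed from gene to gene, as the plot of the called members under other settings shows. After the subtraction 9 members stayed called: Atp6ap1, Atp6v0c, Ctsa, Ctsd, Ctsf, Glb1, Lipa, Npc1 and Scarb2. Of these 9, 7 were among the 32 members outside the V-ATPase and 2 among its 13 subunits. The medians of these lists were then -0.22 and -0.11, and that of all tested genes -0.01. The median of all tested genes was -0.09 before the subtraction, after which scores were not rescaled. The other 13 of the 22 stayed below 0 without being called, except Ctsh. The other-cell shares of control hair cell replicates 1, 2 and 3 were 3.11%, 7.73% and 3.29%. Among the 25 members lower in control hair cells than in control non-hair cells, these replicates were the highest hair cell control for 2, 14 and 9. Among the 12 that were higher, the counts were 6, 3 and 3. The same count was not taken over all genes. The part of RNA from other cells in the falls was not tested beyond this subtraction.

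In non-hair cells 0 of the 45 members passed the test by limma. Over all tested genes, 0.236% rose and 0.106% fell. At an unadjusted p under 0.05, 2 members were higher and 3 lower, beside 8.86% and 8.27% of all genes. The criteria of the study gave 0 higher and 1 lower, beside 3.18% and 2.26% of all genes. All 3 treated replicates lay above all 3 controls for 0 members and below them for 2, beside 10.1% and 7.68%. The median log2 fold change of the members was -0.05, and of all tested genes -0.01.

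The 4 members with the lowest unadjusted p in non-hair cells were Atp6v0b, Neu1, Gusb and Glb1. Atp6v0b, a second proteolipid of the V0 ring, scored 107, 102 and 100.5 in controls and 87.9, 77.5 and 86.4 after gentamicin, with no overlap. This is a log2 fold change of -0.30 with standard error 0.07 (limma adjusted p = 0.0825), and it was the member that met the criteria of the study. In hair cells the same gene had 117, 116 and 116 in controls and 118, 112 and 102 in treated cells (-0.08, limma adjusted p = 0.424). Neu1 had 54.0, 62.2 and 61.2 in control non-hair cells and 51.7, 44.7 and 50.6 in treated ones (-0.27, limma adjusted p = 0.172).

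Gusb, which encodes beta-glucuronidase, had 39.4, 41.4 and 50.8 in control non-hair cells and 50.5, 63.5 and 48.6 after gentamicin (0.30, limma adjusted p = 0.257). Treated replicate 2 was the highest of all. Glb1 had 55.9, 71.4 and 77.4 in controls and 54.8, 42.0 and 61.2 in treated non-hair cells (-0.38, limma adjusted p = 0.267), and these overlapped. Tfeb was at 38.4, 34.6 and 31.6 and then 35.3, 41.3 and 35.9, Lamp1 at 374, 375 and 431 and then 418, 462.5 and 443, Ctsd at 549, 652 and 682 and then 581, 573 and 664.5, and Atp6v1a at 129, 154 and 157 and then 138, 122 and 152. In all 4 genes the groups overlapped.

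Whether the responses of hair cells and non-hair cells differ was tested directly, as the difference between both log2 fold changes in the same limma fit. Of the 45 members 4 had a more negative response in hair cells and 0 a more positive one, which is 8.89% lower, beside 6.57% of all tested genes lower and 6.85% higher. At an unadjusted p under 0.05, 17 members were lower and 1 higher, beside 17.1% and 13.2% of all genes. Under the criteria of the study 7 were lower and 0 higher, beside 8.06% and 7.71%. The 4 were Ctsz (-0.55), Ctsa (-0.54), Lamp1 (-0.44) and Atp6v0c (-0.31), with standard errors of 0.16, 0.09, 0.11 and 0.08. The count fell to 1 or 2 without hair cell control replicate 1, 2 or 3, treated hair cell replicate 2, non-hair cell control replicate 2, or treated non-hair cell replicate 1 or 2, and rose to 6 without treated hair cell replicate 1 or 3 or treated non-hair cell replicate 3. Only Ctsa (limma adjusted p = 0.00515) kept its call in all of these and in every other alternative. With the replicate number as a block, Ctsz was lost (adjusted p = 0.0505) and Arsb gained (-0.90, limma adjusted p = 0.0468).

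In non-hair cells the treated and control replicates of these 4 genes overlapped. Ctsa had 213, 225 and 233 in controls and 221, 248 and 225 after gentamicin. Ctsz had 109, 121 and 126 and then 121, 126 and 121, and Atp6v0c had 136.5, 139.9 and 138 and then 138, 141 and 143. Lamp1 showed the opposite signs, -0.27 in hair cells and 0.17 in non-hair cells (limma adjusted p of the difference = 0.0256). For the other 18 members that fell in hair cells, the difference between the populations was not called, so their fall is not shown to be larger in hair cells.

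Before treatment, hair cells and non-hair cells also differed in these genes. Of the 45 members 12 were higher in control hair cells (26.7%) and 25 lower (55.6%), where 31.9% of all tested genes were higher and 42.2% lower. The pump and the other members went opposite ways. Of the 13 V-ATPase subunits 9 were higher in hair cells and 1 lower, while of the 32 other members 24 were lower and 3 higher. The 34 calls that held in every alternative leave out Psap, Atp6v0b and Atp6ap2. With the replicate number as a block Npc1 was also lower (-0.21, limma adjusted p = 0.0397, against 0.118 without it).

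**Figure D4:**
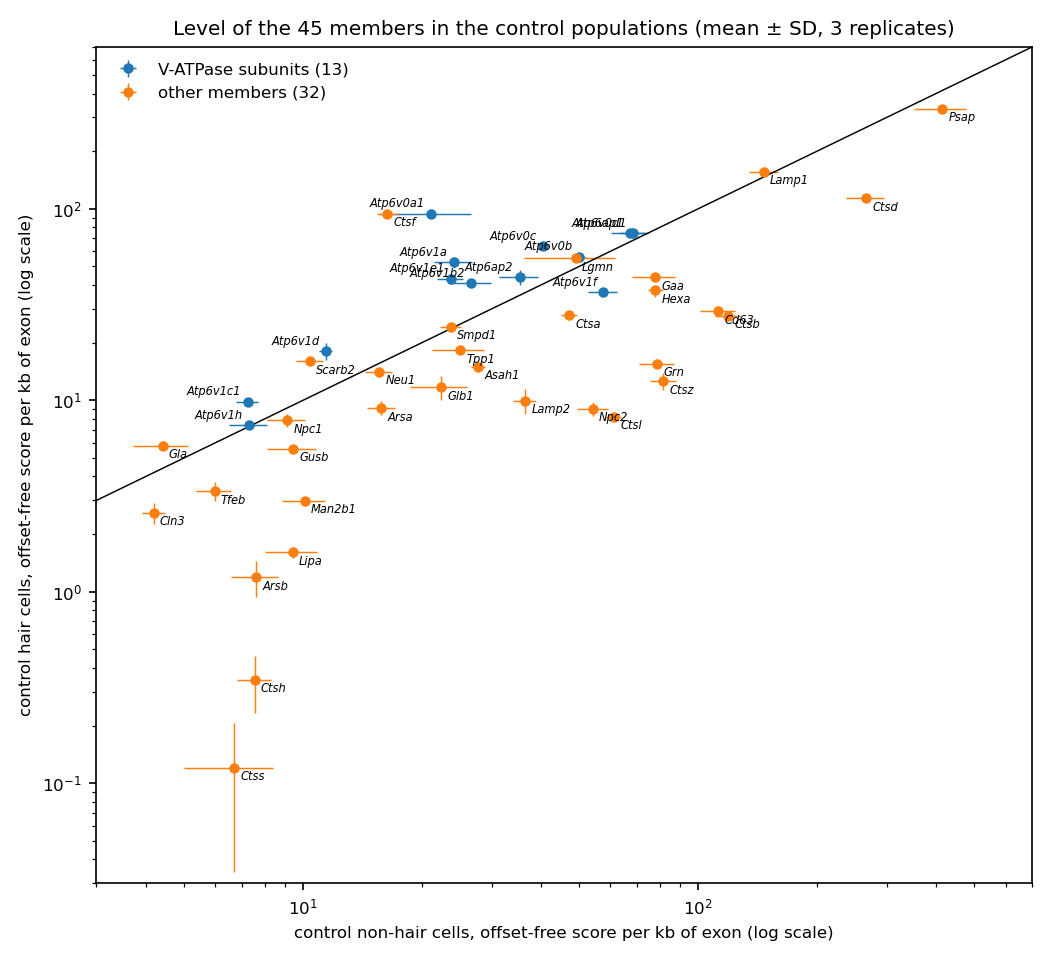
Level of each member in control hair cells (vertical) against control non-hair cells (horizontal), as the score without its offset of 1 per kb of merged exon, on log axes, mean ± SD over 3 replicates; the line marks equal levels. Most V-ATPase subunits (blue) lie on or above the line and most other members (orange) below it, with Ctsh and Ctss lowest in hair cells.

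The member with the largest excess in hair cells was Ctsf, on chromosome 19 (4855130 to 4860918), a cysteine cathepsin and an exception among the proteases. It scored 460.4, 488 and 477 in control hair cells and 77.6, 86.4 and 86.3 in control non-hair cells. This is 2.51 higher on the log2 scale (standard error 0.07, limma adjusted p = 4.05e-11), 5.70-fold. With gentamicin, hair cells had 404, 428 and 386, a fall of 0.23 on the log2 scale (limma adjusted p = 0.0209) that left them far above non-hair cells.

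Atp6v0a1, on chromosome 11 (101009452 to 101063719), encodes the a1 form of the large V0 subunit, the form known from neurons and synaptic vesicles. Its control hair cell scores of 632.5, 632 and 596 stood against non-hair cell scores of 98.8, 166 and 154. On the log2 scale this is 2.19 higher (standard error 0.18, limma adjusted p = 5.31e-07). The next were Atp6v1a with 1.13, Atp6v1e1 with 0.87 and Atp6v0c with 0.66 (limma adjusted p of 8.18e-07, 5.28e-06 and 8.24e-07). Atp6v1e1 had 189, 180.2 and 167 in control hair cells and 90.7, 98.4 and 106 in control non-hair cells. The exception was Atp6v1f, a small V1 subunit, which was lower in hair cells (-0.64, limma adjusted p = 9.68e-05).

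At the other end, Ctsh, Ctss, Ctsl, Ctsz and Npc2 were 13.8-fold, 8.57-fold, 7.32-fold, 6.22-fold and 5.90-fold lower in control hair cells, on scores that include the offset of 1. Ctsl, on chromosome 13 (64359337 to 64370890), had 51.8, 56.9 and 54.4 in control hair cells and 414, 381 and 399 in control non-hair cells. Npc2 had 46.3, 54.2 and 49.7 against 326, 277 and 283, and Ctsz 16.9, 19.9 and 20.5 against 109, 121 and 126. Ctss had 1.04, 1.17 and 1.28 against 8.56, 12.7 and 8.99. Of 16 macrophage markers, 15 were lower in control hair cells, and Ctss and Ctsh are known from macrophages. The 1 higher marker was Laptm5, with 107, 118 and 104.5 against 9.10, 15.3 and 10.1 in control non-hair cells. The part of macrophages in these differences was not tested. Tfeb itself was lower in hair cells by 0.80 on the log2 scale (standard error 0.11, limma adjusted p = 3.37e-05).

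Per kb of exon, the order of the members also differed between the populations. Length is that of all annotated exons of a gene merged, which can exceed that of a single transcript. The order within a population therefore depends on the annotation. In control hair cells the offset-free score per kb was 334 ± 12.6 (SD, n = 3) for Psap, 156 ± 4.47 for Lamp1, 113 ± 5.28 for Ctsd, 94.4 ± 3.22 for Atp6v0a1 and 94.0 ± 2.76 for Ctsf. The last pair, and Atp6ap1 (74.9 ± 1.18) with Atp6v0d1 (74.8 ± 4.43), did not differ beyond their SDs. In control non-hair cells the order was Psap (415 ± 63.0), Ctsd (266.5 ± 29.8), Lamp1 (147 ± 12.3), Ctsb (119 ± 8.45) and Cd63 (112 ± 11.4), of which the last pair overlapped. Atp6v0a1 was 4th in control hair cells and 28th in control non-hair cells. At the low end of hair cells stood Lipa (1.61 ± 0.11), Arsb (1.19 ± 0.26), Ctsh (0.347 ± 0.114) and Ctss (0.121 ± 0.0859).

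As a share of all reads on genes, the 13 V-ATPase subunits took 0.227% to 0.236% in control hair cells, 0.210% to 0.231% in treated hair cells and 0.127% to 0.145% in control non-hair cells. The 32 other members took 0.358% to 0.378% in control hair cells and 0.308% to 0.335% in treated ones, which did not overlap. In non-hair cells they took 0.615% to 0.694% in controls and 0.641% to 0.681% after gentamicin.

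The rest of the pathway was read from 7 further lists of lysosomal genes, which hold no member. Of their 140 tested genes 13 rose and 29 fell in hair cells (9.29% and 20.7%), beside the 14.8% and 18.4% of all tested genes. In non-hair cells 0 were called by limma. There 17 were higher and 11 lower at an unadjusted p under 0.05, beside 8.86% and 8.27% of all genes. The lists differed among themselves. Of 35 other hydrolases and activators 10 fell and 0 rose, and of 31 other membrane and transporter genes 10 fell and 1 rose. Of 20 other V-ATPase subunits and assembly factors 2 rose and 2 fell, with a median of -0.12.

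Among the other hydrolases, Gm2a, the activator that lifts ganglioside out of the membrane, scored 113, 133 and 152 in control hair cells and 96.7, 46.5 and 49.5 in treated ones (-1.12, standard error 0.25, limma adjusted p = 0.00657). Hyal1, a hyaluronidase, had 5.32, 5.59 and 6.06 and then 3.80, 3.68 and 4.06 (-0.56, limma adjusted p = 0.00236). Naglu, which degrades heparan sulfate, had 26.8, 26.7 and 25.3 and then 20.2, 17.2 and 18.9 (-0.49, limma adjusted p = 0.00290). Fuca1, the lysosomal fucosidase, had 65.9, 62.8 and 69.2 and then 58.1, 36.5 and 49.0 (-0.49, limma adjusted p = 0.0168), and lost its call without control replicate 3. In each of these 4 genes every treated hair cell replicate was below every control.

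Of the other membrane genes, Slc36a1, an amino acid exporter of the lysosome, scored 27.9, 32.7 and 29.1 in control hair cells and 15.1, 14.3 and 18.4 in treated ones (-0.91, limma adjusted p = 0.000252). Cln6 had 169, 169 and 165 and then 114, 119 and 110.1 (-0.55, limma adjusted p = 0.000564), beside 32.1, 31.7 and 27.5 in control non-hair cells. Laptm5 had 107, 118 and 104.5 and then 71.8, 71.4 and 78.7 (-0.57, limma adjusted p = 0.0384), a call lost with any 1 hair cell replicate left out. Cd68, a lysosomal glycoprotein of macrophages, went the other way, with 2.13, 2.84 and 2.34 in control hair cells and 13.7, 17.9 and 10.9 in treated ones (2.52, standard error 0.22, limma adjusted p = 3.8e-05). Control non-hair cells had 7.65, 12.5 and 10.1 for Cd68 and 9.10, 15.3 and 10.1 for Laptm5. Treated non-hair cells had 8.50, 7.70 and 9.58 for Cd68 and 9.15, 14.2 and 11.05 for Laptm5. Cd68 and Laptm5 both belong to the list of 16 macrophage markers, of which the other 14 were not called in hair cells. Which cells the reads of Cd68 and Laptm5 came from was not tested.

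Among pump partners, Oxr1, a TLDc protein that binds the V1 sector, scored 189, 180.4 and 195 in control hair cells and 297, 343.5 and 333 in treated ones (0.78, standard error 0.08, limma adjusted p = 6.8e-05). Wdr7, a part of the RAVE-like complex that joins V1 to V0, had 153, 159.7 and 169.7 and then 194.5, 231 and 220.4 (0.42, limma adjusted p = 0.0155), a call lost without control replicate 1 or treated replicate 2. Tcirg1, the a3 form of the V0 subunit, had 17.5, 22.8 and 21.3 and then 14.9, 14.3 and 13.5 (-0.52, limma adjusted p = 0.00731), a call lost after the subtraction (-0.22). In non-hair cells Tcirg1 had 128, 116 and 94.9 and then 73.8, 80.3 and 78.95 (-0.53, limma adjusted p = 0.0795). Atp6v1g2, a neuronal V1 subunit, had 6.04, 8.74 and 6.53 and then 4.18, 3.76 and 4.46 (-0.77, limma adjusted p = 0.0433) and lost its call with any 1 hair cell replicate left out.

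Sorting of hydrolases to the lysosome depends on mannose 6-phosphate receptors. Igf2r, the larger of these receptors, scored 107, 122 and 107 in control hair cells and 65.0, 49.7 and 64.4 after gentamicin, 0.91 lower on the log2 scale (limma adjusted p = 0.000314). It was the single gene called among the 9 of its list, 11.1% lower beside 18.4% of all tested genes. Of 21 genes for MiT factors and for mTORC1 at the lysosome 5 rose and 3 fell in hair cells, with a median of 0.03. These are 23.8% and 14.3%, beside 14.8% and 18.4% of all tested genes.

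In that list, Fnip1, a partner of folliculin, had 27.5, 33.3 and 31.3 and then 47.6, 54.0 and 40.8 (0.63, limma adjusted p = 0.00716), and Mlst8, a subunit of mTORC1, 57.8, 56.0 and 58.3 and then 72.6, 81.7 and 78.5 (0.43, limma adjusted p = 0.00140). Rragd, a Rag GTPase, had 55.1, 56.2 and 62.3 and then 46.3, 38.5 and 51.5 (-0.36, limma adjusted p = 0.0226). It lost its call without control replicate 2 or 3 or treated replicate 2. Tsc1, an inhibitor of mTORC1, had 65.0, 71.7 and 69.3 and then 50.02, 54.5 and 62.5 (-0.31, limma adjusted p = 0.0378), a call kept in 1 of 6 fits with a replicate left out. In all 4 genes the groups did not overlap.

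For tethering and transport of lysosomes, 3 of 12 genes rose and 1 fell. Plekhm1, an adaptor that joins late endosomes and autophagosomes to the tethering complex HOPS, had 59.8, 62.2 and 61.5 and then 36.1, 37.6 and 45.7 (-0.63, limma adjusted p = 0.000413). Plekhm2, which links lysosomes to kinesin, had 96.6, 92.9 and 85.9 and then 116, 136 and 129 (0.47, limma adjusted p = 0.00103). Vps11, a core subunit of HOPS, had 70.9, 71.7 and 69.0 and then 76.7, 81.7 and 86.6 (0.21, limma adjusted p = 0.0402), a call kept in 1 of 6 fits with a replicate left out.

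Of 12 genes of the response to damaged lysosomes 2 rose and 2 fell (16.7% each), close to the 14.8% and 18.4% of all tested genes. Plaa, a cofactor of the clearance of damaged lysosomes, had 63.2, 62.1 and 62.4 in control hair cells and 80.8, 81.6 and 77.0 in treated ones (0.35, limma adjusted p = 0.00266). Lgals8, a galectin that marks ruptured membranes, had 67.4, 68.8 and 68.8 and then 89.1, 100.5 and 73.7 (0.35, limma adjusted p = 0.0284), a call kept in 1 of 6 fits with a replicate left out. Trim16, a ligase recruited to them, had 13.7, 14.9 and 18.8 and then 10.5, 6.02 and 7.99 (-0.98, limma adjusted p = 0.00371), and Chmp4b, of the ESCRT-III repair machinery, had 182, 171 and 180.1 and then 145, 148.5 and 143 (-0.29, limma adjusted p = 0.00312).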

How the data were processed

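RNA of sorted cells was prepared with a poly(A) mRNA-seq kit and sequenced as single 50 bp reads, which the authors trimmed, aligned to mm10 with TopHat 2 in PartekFlow and deposited as a normalized read signal (score) per gene and replicate. The deposited signal holds an offset of 1. The methods name RPKM, but the scores carry no division by length, and their scaling factor is not given in the sources used here. Dividing the offset-free signal by its smallest step gave reads that were whole within 0.02 for 75.4% to 76.8% of low values, so no count test was run. The counting tool and its use of strand are not given there either. The 16077 genes that reached 100 recovered reads in the sum of 12 replicates entered 1 limma model (version 3.58.1, R 4.3.3) of log2 scores with 4 groups, a variance trend and two-sided tests. Fold changes are on the scale of log2(offset-free score + 1), which understates changes of low genes. Benjamini-Hochberg adjustment ran over all genes tested. Deviations of same-numbered control hair cell and control non-hair cell replicates from their group means correlated at 0.200 to 0.316. Those of differently numbered ones correlated at -0.27 to -0.055. Deviations in a group sum to 0, so these ranges do not stand independently of each other. By this measure same-numbered control replicates were more alike, and the main model did not use the numbers. Other tables were made with Python 3.11.15, numpy 2.4.6, pandas 2.3.3 and matplotlib 3.10.9. Gene positions and exon lengths come from GENCODE M21.

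The members and lists were chosen with earlier results of these data known. Named with values in every replicate were Tfeb, Lamp1, Ctsd and Atp6v1a; in hair cells up to 8 called members per direction with the largest change and no overlap; in non-hair cells the 4 lowest unadjusted p, none being called; called interactions; up to 5 per direction between control populations; and up to 4 called genes of each other list with a mean score of at least 5. Other members were named after their values were seen. Of the listed genes Tldc1, Borcs5, Borcs7, Bloc1s2, Adgre1, Hbb-bt and Hbb-bs were not analysed here. Alternatives were median-of-ratios, trimmed mean of M-values (TMM) and total scaling, offsets of 0.1 and 5, a minimum of 1000 reads or none, compared groups alone, the replicate block, no trend, the criteria of the study, subtraction of the non-hair cell share, and each replicate left out. The subtraction was not followed by a rescaling of the scores.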

Additional observations from a re-analysis of the deposited data

Results flagged for a closer look

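Genes whose response to gentamicin differed between hair cells and non-hair cells by limma's interaction (adjusted p under 0.05) are listed here as values, on the log2 scale and as the hair cell response minus the non-hair cell response. Among the members these were Ctsz (-0.55), Ctsa (-0.54), Lamp1 (-0.44) and Atp6v0c (-0.31). Ctsa alone kept this call with each replicate left out, and Ctsz was called in 2 of 12 such fits.

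Among the genes of the other lysosomal lists named above, more positive responses in hair cells were those of Cd68 (2.73), Fnip1 (0.93), Oxr1 (0.73), Lgals8 (0.60) and Plekhm2 (0.42). More negative ones were those of Trim16 (-1.01), Igf2r (-0.73), Slc36a1 (-0.64), Hyal1 (-0.62), Plekhm1 (-0.60), Naglu (-0.50), Cln6 (-0.47) and Chmp4b (-0.34). Groups of 3 replicates are too small for a test of single outlying samples.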

How the results depend on the processing

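The 22 falls of members in hair cells became 11 with total scaling and 9 with the non-hair cell share subtracted, 11 to 19 with single replicates left out, and 16 to 24 in the other alternatives. Calls of Scarb2, Ctsa, Ctsd, Lipa and Atp6v0c held in every setting, and those of 10 members with every replicate left out. The 4 lower interactions became 1 with total scaling, 2 without the trend, 7 under the criteria of the study, and 1 to 6 with a replicate left out. In non-hair cells the criteria of the study gave 1 lower member. Of the other lysosomal genes, 15 fell in hair cells with total scaling and 17 to 27 with a replicate left out, and 8 to 12 rose. In non-hair cells the criteria of the study gave 6 higher and 2 lower of these, and leaving out a replicate gave 0 or 1 in each direction.

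Signs turned for members near 0 in hair cells and for Ctsh. With total scaling log2 fold changes were 0.054 for Lamp2, 0.007 for Man2b1, 0.080 for Asah1, 0.067 for Smpd1, 0.018 for Atp6v0b and 0.069 for Atp6v1c1. After the subtraction they were 0.158 for Lamp2, 0.082 for Ctsh, 0.062 for Man2b1, 0.072 for Asah1, 0.015 for Smpd1 and 0.008 for Atp6v1c1. With single replicates left out they ran from -0.112 to 0.072 for Lamp2, -0.021 to 0.230 for Ctss, -0.077 to 0.047 for Asah1, -0.078 to 0.004 for Smpd1, -0.003 to 0.076 for Atp6v1b2, -0.058 to 0 for Atp6v1c1 and -0.033 to 0.102 for Atp6v1d. The cause was not tested.

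Between control and treated samples, deviations of same-numbered samples correlated at 0.037 to 0.052 (mean 0.042) in hair cells and -0.23 to 0.68 (mean 0.22) in non-hair cells. Differently numbered ones correlated at -0.078 to 0.044 (mean -0.021) and at -0.75 to 0.57 (mean -0.11). The ranges overlapped, so the numbers are not shown to pair treated with control samples. With the replicate block 20 members fell in hair cells, without Cd63 and Hexa, and 0 were called in non-hair cells. There were 4 lower interactions, with Arsb in place of Ctsz, and 12 higher and 26 lower members between the control populations. No other call of a member changed with the block. Depth limits Ctss and Ctsh in hair cells, with at most 50 reads a replicate.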
